A study of Mus musculus with 9 samples.

Results

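The 10 genes described here are known for their use in mast cells and basophils: Fcer1a, Ms4a2, Il1rl1 and Cd200r3 (receptors), Hdc and Slc18a2 (histamine and amine handling), Mitf (a transcription factor) and Il4, Il13 and Il6 (cytokines). They were found by gene name among the array probes that are not controls, and all 10 of the 10 listed genes were present among the 36413 gene or region names of the array, with 14 probes in all. Each gene was represented by the probe with the highest mean over the 9 columns of the authors' log2 values.

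RNA came from mouse LSK cells, a sorted fraction of bone marrow without lineage markers but with Sca1 and cKit on the surface, which is rich in blood stem cells and early progenitors. The Drosha-deleted group carried floxed Drosha alleles (Drosha fl/fl), the Dicer-deleted group carried floxed Dicer alleles (Dicer fl/fl), and the control group carried neither. All 3 groups, controls included, came from female mice with CreERT2 at the Gt(ROSA)26Sor locus, a ubiquitously active locus, so the Cre was not limited to one blood lineage and needed tamoxifen to act. All were kept for 72 h in 250 nM 4OH-tamoxifen with 10 ng/mL IL-3, 10 ng/mL IL-6, 50 ng/mL stem cell factor and 10% serum, at 50000 cells per well, and each group had 3 repeats, each on 1 one-colour Agilent array. The age of the mice is not in the labels. The labels do not state that repeats came from separate animals, so the p-values below reflect the variation among these arrays, which may be technical, and having 3 per group limits their precision.

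Mast cells and basophils carry the high-affinity IgE receptor on their surface. When antigen links the bound IgE, the cells release stored histamine and other granule contents, and then make lipid mediators and cytokines. Both cell types arise from bone marrow progenitors. IL-3 is a growth factor for both and stem cell factor for mast cells. GATA factors act in the gene programs of both, and Mitf in that of mast cells. Drosha and Dicer perform successive cuts in microRNA maturation, Drosha in the nucleus and Dicer in the cytoplasm, and the study compared cells that lack one or the other enzyme with cells that have both.

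Several features of the arrays bear on the values below. The targeted genes followed the labels: Drosha read 8.81, 8.92 and 9.32 in Drosha-deleted samples, against 12.04, 11.88 and 11.85 in controls (log2), and Dicer1 read 8.99, 9.18 and 8.97 in Dicer-deleted samples, against 9.92, 10.50 and 10.44 in controls. Drosha fell by 2.91 (limma adjusted p = 0.000153), and the Dicer1 difference of −1.24 had an adjusted p of 0.118. Which exons were floxed is not stated, and a probe outside them would not read the deletion itself. The scanner file held for control replicate 2 had 18.9% of spots marked non-uniform and correlated at 0.815 with the authors' column for that sample, where the other 8 files correlated at 0.993 to 0.999 with theirs. The authors' columns of control replicates 2 and 3 correlated at 0.990 with each other and at 0.978 to 0.986 with the other 7, which correlated among themselves at 0.988 to 0.994. By the headers of the scanner files, control replicate 3 came from a slide and a scan of its own. Its slide and its sample therefore cannot be told apart. For control replicate 2 the header is that of the file that did not match its column, so the slide behind that column is not known. For these reasons the differences of the 10 genes in each deletion, and the medians of the lists of related genes, are also given as ranges. These run over the choice of controls, that is, over fits with all 3 controls, with each of them left out, and with control replicate 1 alone. Differences of other single genes are given without this range. Per array, Ly6a (which encodes Sca1) read 10.11 to 12.27 and Kit 11.90 to 13.06, both well above background on all 9 arrays.

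All 10 genes were detected. 9 of them were well above background on all 9 arrays and Il13 was on 8, the exception being Dicer-deleted replicate 2, and none was saturated. The flags of control replicate 2 came from the scanner file that did not match its column. That file had 93.2% of spots marked well above background, against 54.2% to 62.3% in the others. Without it, 9 of the 10 genes were well above background on all 8 arrays and Il13 on 7. Counts over 9 arrays elsewhere include these flags. None of the 10 passed limma's test in any comparison of groups, with Benjamini-Hochberg adjustment over 23016 genes and regions at a threshold of 0.05. In Drosha-deleted cells against controls 0 of 10 were called, where 0.169% of all genes tested were, and 1 of 10 had an unadjusted p under 0.05, where 26.9% of all genes did. In Dicer-deleted cells against controls 0 of 10 were called, where 0.0174% of all genes were, and 0 of 10 had an unadjusted p under 0.05, against 21.9% of all genes. Between Drosha-deleted and Dicer-deleted cells 0 of 10 were called beside 0.0565% of all genes, and 0 of 10 had an unadjusted p under 0.05 beside 5.67%. With both deletions pooled against controls 0 of 10 were called, where 0.130% of all genes were, and 1 had an unadjusted p under 0.05, where 30.2% of all genes did.

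The shares of all genes that were called were themselves under 1%, so the intervals of the differences carry more than the counts of 0. The median difference of the 10 genes was −0.12 log2 units in Drosha-deleted cells and −0.18 in Dicer-deleted cells, each against controls, where the median over all genes tested was within 0.01 of 0 in both. The choice of controls turned both medians: they were −0.33 and −0.39 without control replicate 2, 0.18 and 0.13 without control replicate 3, and 0.08 and 0.04 against control replicate 1 alone. Both comparisons use the same 3 controls.

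**Figure D1:**
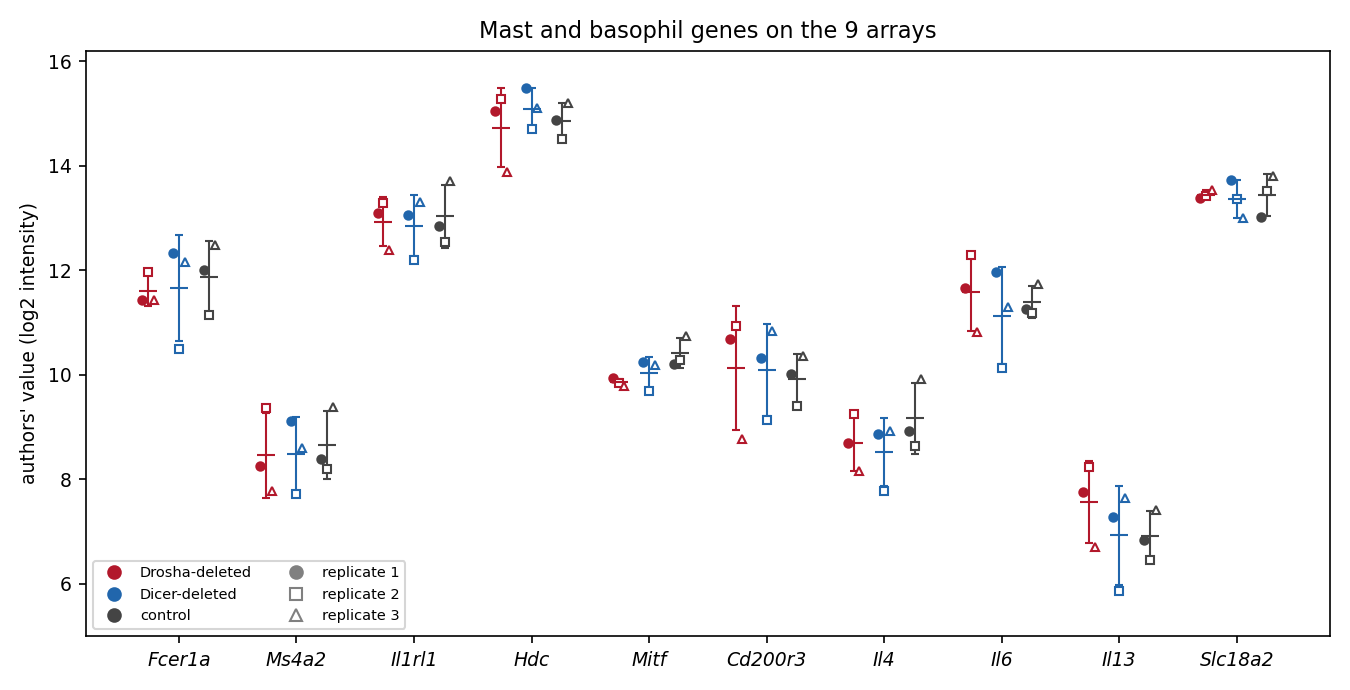
The authors' log2 value (vertical axis, log2 intensity) of each gene in Drosha-deleted, Dicer-deleted and control samples; symbols mark the replicates, and horizontal and vertical bars give the mean and SD of 3 arrays. Different genes are read by different probes, so heights compare groups within a gene and not genes with each other. The groups overlap for every gene except Mitf, whose 3 Drosha-deleted values (9.79 to 9.93) lie below the 3 control values (10.21 to 10.75).

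The IgE receptor was represented by Fcer1a, its IgE-binding alpha chain, and Ms4a2, its signal-amplifying beta chain. Because these are chains of the same receptor, their promoters are shown together, as RefSeq gives them on GRCm38.p6 from 250 bases before to 50 bases after the start of the gene. Capitals mark the GATA core on either strand (GATA or its complement TATC), the letters that GATA factors bind.
Fcer1a, chr1:173227180-173227479, minus strand: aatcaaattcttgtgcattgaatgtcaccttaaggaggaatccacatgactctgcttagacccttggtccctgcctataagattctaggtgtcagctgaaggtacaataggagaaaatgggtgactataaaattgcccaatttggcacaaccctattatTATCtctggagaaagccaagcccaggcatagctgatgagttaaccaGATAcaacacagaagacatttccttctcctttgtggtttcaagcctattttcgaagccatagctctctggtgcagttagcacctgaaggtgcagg
Ms4a2, chr19:11623670-11623969, minus strand: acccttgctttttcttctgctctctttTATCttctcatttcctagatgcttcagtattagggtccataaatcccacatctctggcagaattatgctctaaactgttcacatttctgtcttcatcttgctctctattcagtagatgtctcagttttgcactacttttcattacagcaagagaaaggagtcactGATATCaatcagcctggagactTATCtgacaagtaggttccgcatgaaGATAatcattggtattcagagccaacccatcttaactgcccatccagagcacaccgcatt

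The Fcer1a window held the GATA core 2 times and the Ms4a2 window 5 times, a pair of the latter overlapping within the letters GATATC. All 10 genes matched the RefSeq promoter table, with 14 start sites among them, and each of the 14 windows held at least 1 GATA core, a core that 57.9% of the 32851 mouse promoter windows of that length hold. The E-box CANNTG, read on both strands like all the motifs here and the general form of the sites that Mitf and other basic helix-loop-helix factors bind, was in 10 of the 14 windows and in 72.3% of all. The CACGTG form was in 0 of 14 and 7.15% of all, and the CATGTG form in 2 of 14 (Fcer1a and Il4) and 14.2% of all, both of these being also counted as CANNTG. The AP-1 element TGANTCA was in 1 (Il6) and 7.81% of all, and the STAT element TTCNNNGAA in 1 (Il4) and 8.30% of all. These are matches of letters in short windows and were not tied to binding in these cells.

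Fcer1a read 11.44, 11.97 and 11.44 in Drosha-deleted samples, 12.33, 10.50 and 12.15 in Dicer-deleted samples, and 12.01, 11.14 and 12.48 in controls. Its groups overlapped, with Dicer-deleted replicate 2 the lowest of the 9 and control replicate 3 the highest. Against controls it differed by −0.26 in Drosha-deleted cells (95% interval −1.38 to 0.86, adjusted p = 0.751) and by −0.21 in Dicer-deleted cells (−1.33 to 0.90, adjusted p = 0.814). Over the choice of controls these differences ranged over −0.63 to 0.04 and −0.58 to 0.09, the low ends without control replicate 2 and the high ends without control replicate 3. RNA of the whole culture was measured, so that fewer cells of a type and less RNA per cell cannot be told apart, here and for all genes below.

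Ms4a2 read 8.25, 9.36 and 7.78 in Drosha-deleted samples, 9.12, 7.73 and 8.60 in Dicer-deleted samples, and 8.38, 8.19 and 9.39 in controls. The groups overlapped, and Dicer-deleted replicate 2 was again the lowest array and control replicate 3 the highest. The difference from controls was −0.19 in Drosha-deleted cells (interval −1.31 to 0.92) and −0.18 in Dicer-deleted cells (−1.29 to 0.94), with adjusted p-values of 0.818 and 0.849. The choice of controls moved them over −0.43 to 0.17 and −0.41 to 0.19, with the same replicates left out at the low and high ends. The gamma chain that completes the receptor, Fcer1g, which other Fc receptors share, averaged 15.06 ± 0.21 in Drosha-deleted, 14.87 ± 0.39 in Dicer-deleted and 15.03 ± 0.28 in control samples (SD, n = 3 each).

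Il1rl1 encodes ST2, the receptor for the alarmin IL-33. It read 13.09, 13.29 and 12.40 in Drosha-deleted samples, 13.06, 12.20 and 13.31 in Dicer-deleted samples, and 12.86, 12.54 and 13.70 in controls. The lowest array of the Drosha-deleted group was replicate 3 and that of the Dicer-deleted group replicate 2, and the groups overlapped. Differences from controls were −0.10 (interval −0.97 to 0.76) for the Drosha deletion and −0.18 (−1.04 to 0.69) for the Dicer deletion, and ranged over −0.35 to 0.23 and −0.42 to 0.16, again low without control replicate 2 and high without control replicate 3. The gene has 3 probes, and the other two, which were not used, gave differences of −0.56 and −0.04 in Drosha-deleted and −0.29 and −0.28 in Dicer-deleted cells.

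Cd200r3 is an activating member of the CD200 receptor family found on mouse basophils and mast cells. It read 10.68, 10.94 and 8.76 in Drosha-deleted samples, 10.33, 9.13 and 10.84 in Dicer-deleted samples, and 10.01, 9.40 and 10.36 in controls. Drosha-deleted replicate 3 and Dicer-deleted replicate 2 lay below all 3 controls while the other 2 arrays of the Drosha-deleted group lay above them. This gave the widest spread within a group of the 10 genes, 10.13 ± 1.19 in Drosha-deleted against 10.10 ± 0.88 in Dicer-deleted and 9.92 ± 0.49 in control samples (SD, n = 3). The differences from controls, 0.20 and 0.18, had intervals of −1.17 to 1.58 and −1.20 to 1.55, and ranged over −0.06 to 0.42 and −0.09 to 0.39, both below 0 without control replicate 2 only.

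Hdc, histidine decarboxylase, makes histamine from histidine. Its RNA read 15.04, 15.28 and 13.87 in Drosha-deleted samples, 15.48, 14.70 and 15.10 in Dicer-deleted samples, and 14.87, 14.51 and 15.20 in controls. Drosha-deleted replicate 3 was the lowest array and Dicer-deleted replicate 1 the highest, and all groups overlapped. Hdc differed from controls by −0.13 (interval −0.96 to 0.70) in Drosha-deleted and by 0.23 (−0.59 to 1.06) in Dicer-deleted cells, and Drosha-deleted cells differed from Dicer-deleted cells by −0.36 (−1.19 to 0.47, limma adjusted p = 0.999). Over the choice of controls the differences from controls ranged over −0.30 to 0.04 in Drosha-deleted cells and 0.06 to 0.40 in Dicer-deleted cells, low without control replicate 2 and high without control replicate 3.

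Slc18a2 encodes VMAT2, which loads histamine and serotonin into granules. It read 13.37, 13.42 and 13.54 in Drosha-deleted samples, 13.72, 13.37 and 12.99 in Dicer-deleted samples, and 13.02, 13.51 and 13.80 in controls. The 3 Drosha-deleted values lay inside the range of both other groups. Group means were 13.44 ± 0.08, 13.36 ± 0.36 and 13.44 ± 0.40 (Drosha-deleted, Dicer-deleted and control; SD, n = 3), and the intervals of the differences from controls, −0.52 to 0.52 and −0.60 to 0.44, were among the narrowest of the 10 genes. The differences were 0.00 and −0.08, and ranged over −0.21 to 0.43 and −0.29 to 0.34, low without control replicate 1 and high against that replicate alone. Both Dicer-deleted replicate 2 and Drosha-deleted replicate 3, low for most of the other genes, lay at or above their group's mean here.

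Mitf encodes a transcription factor needed for mast cell development. It read 9.93, 9.85 and 9.79 in Drosha-deleted samples, 10.25, 9.70 and 10.19 in Dicer-deleted samples, and 10.21, 10.28 and 10.75 in controls. All 3 Drosha-deleted values lay below all 3 controls, the only such separation among the 10 genes in any pair of groups. Of all genes tested, 10.5% were lower without overlap in Drosha-deleted cells and 12.6% were higher; these shares were 9.95% and 11.7% for Dicer-deleted cells against controls, and 6.79% and 8.61% for Drosha-deleted against Dicer-deleted cells. The Dicer-deleted group overlapped the controls, since its replicate 1 exceeded control replicate 1. Against controls Mitf differed by −0.56 in Drosha-deleted cells, 1.47-fold lower (SE 0.19, interval −0.99 to −0.13, unadjusted p = 0.0164 and adjusted p = 0.125 by limma), and by −0.37 in Dicer-deleted cells, 1.29-fold lower (interval −0.80 to 0.06, adjusted p = 0.275). Pooled, the deletions differed from controls by −0.47 (interval −0.84 to −0.09, limma adjusted p = 0.110).

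The call for Mitf turned on the controls. Without control replicate 1 the difference in Drosha-deleted cells was −0.66 with a limma adjusted p of 0.0374, in a fit that called 33.6% of all genes; the pooled difference was −0.57 with an adjusted p of 0.0398 beside 37.4% of all genes, and Mitf was not called in Dicer-deleted cells, where 30.5% were. With arrays weighted by their agreement, which gave control replicate 1 a weight of 0.147, it was −0.70 with an adjusted p of 0.00773 in Drosha-deleted and −0.48 with an adjusted p of 0.0442 in Dicer-deleted cells, where 50.6% and 43.5% of all genes were called; the pooled comparison, −0.59 with an adjusted p of 0.00874, called 52.4%. Between the deletions none of the 10 genes was called with these weights, where 0.652% of all genes were. Without control replicate 3 it was −0.39 and −0.20, and against control replicate 1 alone −0.36 and −0.17, neither of them called, so that over the choice of controls the differences ranged over −0.66 to −0.36 and −0.47 to −0.17. In scanner values the differences were −0.04 in Drosha-deleted cells and 0.20 in Dicer-deleted cells with the mismatched file of control replicate 2, and −0.79 and −0.55 without it. A second Mitf probe, which lay at chromosome 6, 97968501 to 97968560 on mm9, averaged 8.56 ± 0.20 in Drosha-deleted, 8.38 ± 0.43 in Dicer-deleted and 9.20 ± 0.47 in control samples (SD, n = 3), and its Drosha-deleted and control values overlapped. The probe used lay at 97971229 to 97971288 on the same chromosome and strand, and for it Drosha-deleted cells differed from Dicer-deleted cells by −0.19 (interval −0.62 to 0.24).

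Il4 and Il13 encode the type 2 cytokines that basophils and mast cells make after activation, and lie near each other on chromosome 11. Il4 read 8.70, 9.25 and 8.16 in Drosha-deleted samples, 8.86, 7.78 and 8.93 in Dicer-deleted samples, and 8.93, 8.64 and 9.92 in controls. The highest control exceeded all other arrays, the lowest control lay within both deleted groups, and Dicer-deleted replicate 2 was the lowest array. The difference was −0.46 in Drosha-deleted cells (interval −1.43 to 0.51, adjusted p = 0.499) and −0.64 in Dicer-deleted cells (−1.61 to 0.33, adjusted p = 0.382). Over the choice of controls they ranged over −0.72 to −0.08 and −0.90 to −0.26, nearest to 0 without control replicate 3.

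Il13 read 7.76, 8.23 and 6.71 in Drosha-deleted samples, 7.29, 5.86 and 7.64 in Dicer-deleted samples, and 6.84, 6.47 and 7.42 in controls. The value of 5.86 was the only one of any of the 10 genes not well above background. Of the Drosha-deleted arrays 2 lay above all controls and the third lay between them, a difference of 0.66 (interval −0.51 to 1.82, adjusted p = 0.422), and the Dicer-deleted group differed by 0.02 (−1.15 to 1.18). Over the choice of controls these ranged over 0.44 to 0.91 and −0.20 to 0.27, low without control replicate 2 and high without control replicate 3. Drosha-deleted cells exceeded Dicer-deleted cells by 0.64, with an interval of −0.52 to 1.81. For Il4 the same difference between the deletions was 0.18 (−0.79 to 1.15).

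Il6 encodes interleukin 6, a cytokine that was also in the medium of all groups; the array reads the cells' own RNA. It read 11.65, 12.29 and 10.81 in Drosha-deleted samples, 11.96, 10.13 and 11.30 in Dicer-deleted samples, and 11.25, 11.17 and 11.74 in controls. The controls lay close together and inside the range of both deleted groups. Differences from controls were 0.20 in Drosha-deleted cells (interval −0.89 to 1.29) and −0.26 in Dicer-deleted cells (−1.35 to 0.83), and Drosha-deleted cells differed from Dicer-deleted cells by 0.46 (−0.64 to 1.55, limma adjusted p = 0.999). Over the choice of controls the differences from controls ranged over 0.09 to 0.37 and −0.36 to −0.08.

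**Figure D2:**
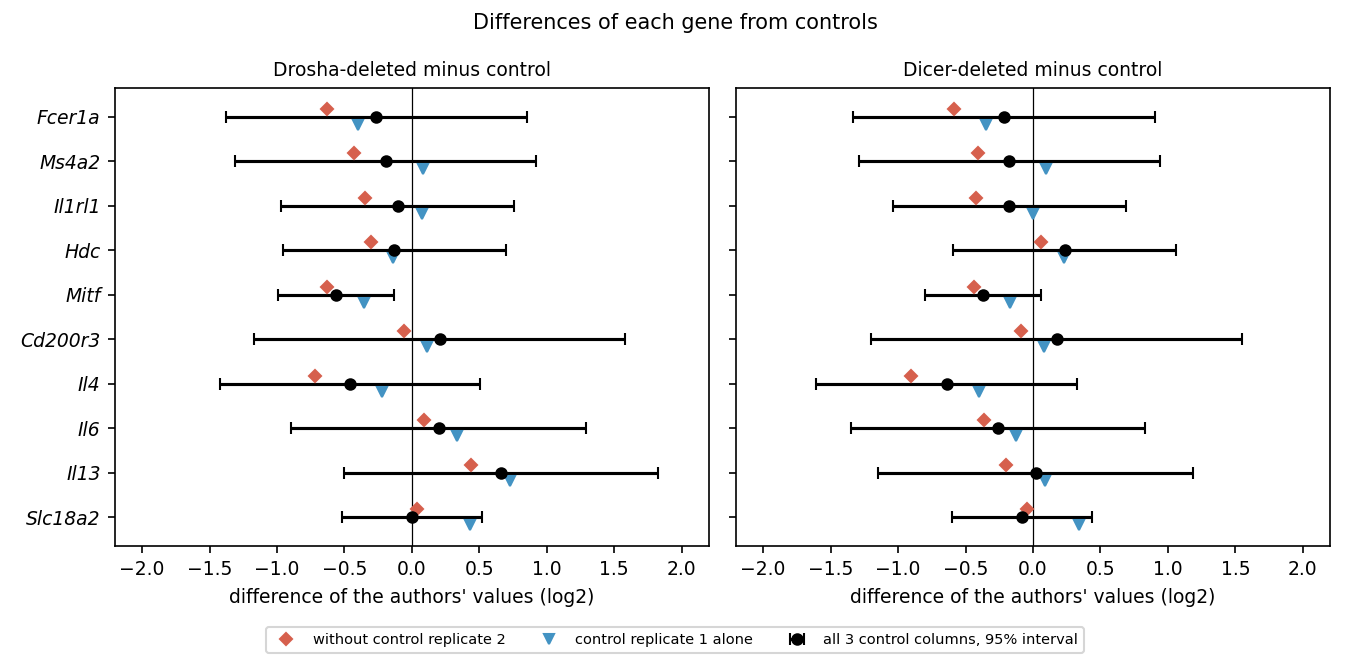
Difference from controls (horizontal axis, log2 units) of each gene in Drosha-deleted (left) and Dicer-deleted cells (right), with the 95% interval of the limma fit over 9 arrays in black; diamonds leave out control replicate 2 and triangles use control replicate 1 alone. Only the interval of Mitf in Drosha-deleted cells (−0.99 to −0.13) leaves out 0, and Il4 in Drosha-deleted cells reads −0.72 as the diamond and −0.22 as the triangle.

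The 10 genes varied between repeats of a group more than most genes did. Their pooled SD within groups ran between 0.25 and 0.90 log2 units with a median of 0.67, where the median over all genes tested was 0.23 and the 90th percentile 0.45. All 10 lay above that median, and all but Mitf and Slc18a2 lay above that percentile. The spread had a common direction within arrays. Dicer-deleted replicate 2 was the lowest of its group for 9 of the 10 genes, against 29.8% of all genes tested, and the lowest of all 9 arrays for 7 of them, against 10.4% of all genes. Drosha-deleted replicate 3 was the lowest of its group for 9 of the 10, against 36.9% of all genes, and control replicate 3 was the highest of its group for all 10, against 29.8% of all genes. The mean deviation of the 10 genes from the group mean was −0.71 in Dicer-deleted replicate 2, −0.58 in Drosha-deleted replicate 3, −0.38 in control replicate 2 and 0.51 in control replicate 3.

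**Figure D3:**
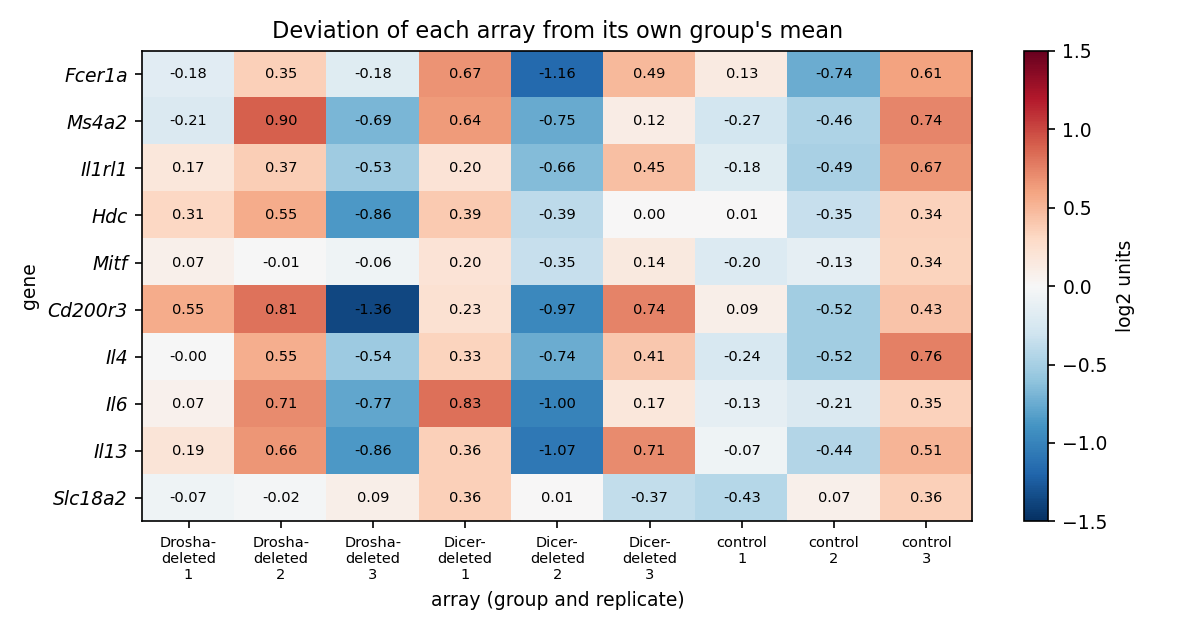
Deviation of each array (columns, group and replicate) from its own group's mean for each gene (rows), in log2 units printed in the cells; red is above and blue below the mean. Most of the column of Dicer-deleted replicate 2 and of Drosha-deleted replicate 3 is blue, while the cells of Slc18a2 in those columns read 0.01 and 0.09.

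Over the 45 pairs of the 10 genes, the correlation across the 9 arrays had a median of 0.69 and ran between −0.19 and 0.93; the arrays share their culture and their group, and these are descriptions without a test. Il1rl1 and Il4 had the highest value, Fcer1a and Ms4a2 reached 0.83, Il6 and Il13 0.88, and no pair with Slc18a2 exceeded 0.33. Mitf followed Il4 (0.78) and Fcer1a (0.67) more than Il13 (0.19). Among 12704 other named genes, those with the most similar pattern over the 9 arrays were Ly86 (0.97) and Prg2 (0.95), the latter a granule protein of eosinophils, for Fcer1a, the chemokine gene Ccl3 (0.98) for Hdc, and the cytokine gene Osm (0.99) for Cd200r3. For Il1rl1 they included the adenosine receptor Adora3 (0.96), for Il6 the Fc receptor Fcgr2b (0.95), for Il13 the steroid enzyme Cyp11a1 (0.96), and for Mitf the ATP receptor P2rx7 (0.98). Each is among the highest of 12704 values, so their size was fixed by that choice.

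Means of several marker lists of related cell types moved with these arrays, while single markers did not all do so. The mean log2 value of 8 mast cell markers was 10.14 in Drosha-deleted replicate 3 and 10.04 in Dicer-deleted replicate 2, and lay between 10.36 and 10.92 on the other 7 arrays. For 7 basophil markers it was 9.53 and 9.35 on those arrays and between 9.79 and 10.86 on the others. This list holds 4 of the 10 genes described here (Fcer1a, Ms4a2, Cd200r3 and Il4), and the mast cell list holds 3 of them (Fcer1a, Ms4a2 and Hdc). Both means therefore repeat in part the values of the 10 genes. Of the other markers, Cpa3 and Prss34 were the lowest of their group on both arrays. Kit, on the mast cell list, went the other way, at 13.06 in Drosha-deleted replicate 3 and 12.88 in Dicer-deleted replicate 2, its highest values among the 9 arrays. Tpsb2, Cma1 and, on the basophil list, Itga2 were not the lowest of their group in Dicer-deleted replicate 2. The 9 eosinophil markers read 7.55 in Dicer-deleted replicate 2 against 8.55 to 9.41 elsewhere, the 10 neutrophil markers 13.85 against 14.23 to 15.82, and the 10 monocyte and macrophage markers 9.06 against 9.44 to 10.46. The megakaryocyte and erythroid lists were lowest on other arrays, at 13.89 in Dicer-deleted replicate 3 and 8.13 in control replicate 1, while the T cell and innate lymphoid list was lowest in Dicer-deleted replicate 2, at 8.69 against 8.78 to 9.11. The 9 stem and progenitor markers read 11.33 in Drosha-deleted replicate 3, the highest of the 9 arrays, where the others lay between 10.59 and 11.01. Summed on the linear scale, the basophil markers ranged over 13946 to 43961 in Drosha-deleted, 11612 to 35646 in Dicer-deleted and 13418 to 33868 in control samples, and the mast cell markers over 48180 to 81925, 48084 to 76230 and 45765 to 74515, so the ranges of the groups overlapped. All 7 basophil and all 8 mast cell markers passed the filter for testing. T cells and innate lymphoid cells can also make Il4 and Il13. Of their 10 markers, 7 were well above background on 8 or more arrays, among them Cd3e and Cd4 on all 9. Cd3g and Cd8a were well above background on no array, control replicate 2 left aside. The part of these markers in the values of the 10 genes was not tested. Of the genes on all 9 marker lists, 1 was called in any comparison, the monocyte marker Cd14, which fell by 1.26 in Drosha-deleted cells against controls (limma adjusted p = 0.0300). The Cd14 call was lost in 6 of the 9 fits that left out 1 array, with limma adjusted p-values of up to 0.147, while the difference stayed between −1.37 and −1.11. In scanner values the difference was −0.33 with the mismatched file of control replicate 2 and −1.26 without it (limma adjusted p = 0.799 and 0.149). Normexp and quantile normalisation, with that file included, gave −0.03 (limma adjusted p = 0.985). The call was also lost with the replicate block, and kept with array weights, with no filter and with all probes averaged.

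The genes around the 10 were listed in 7 groups of 124 entries, of which all but 17 were tested, and none of those tested was called in any of the 4 comparisons. Among 21 genes of IgE receptor signalling, all tested, 5 had an unadjusted p under 0.05 in Drosha-deleted cells and 6 in Dicer-deleted cells against controls. These are 23.8% and 28.6% of the list, near the 26.9% and 21.9% of all genes. The median differences were −0.15 in both, and −0.20 to −0.11 and −0.18 to −0.08 over the choice of controls. Lat, the scaffold that carries the receptor's signal, averaged 12.38 ± 0.24 in Drosha-deleted, 12.38 ± 0.13 in Dicer-deleted and 12.91 ± 0.23 in control samples (SD, n = 3), a pooled difference of −0.53 with a limma adjusted p of 0.0819. Orai1, the pore of the store-operated calcium channel, averaged 11.02 ± 0.15, 11.05 ± 0.19 and 10.42 ± 0.36 in the same order, a pooled difference of 0.61 (limma adjusted p = 0.0814). Its control replicates 1, 2 and 3 read 10.83, 10.18 and 10.26, so that replicate 1 lay nearest to the deleted samples. With 1 array left out at a time the difference ranged over 0.49 to 0.82.

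Of 21 other surface receptors 18 were tested, with 5 unadjusted p-values under 0.05 in each deletion against controls, 27.8% of the list beside 26.9% and 21.9% of all genes. The median differences were −0.08 in Drosha-deleted cells (−0.14 to 0.07 over the choice of controls) and −0.13 in Dicer-deleted cells (−0.28 to −0.09). Itga2, an integrin chain present on mouse basophils, differed by −0.53 in the pooled comparison (limma adjusted p = 0.0560), and Itga4 by 0.65 in Dicer-deleted cells (limma adjusted p = 0.141). All 21 transcription factors were tested, with medians of −0.15 (−0.22 to −0.04) and −0.24 (−0.34 to −0.13) and with 1 and 5 unadjusted p-values under 0.05, or 4.76% and 23.8% of the list. Tal1, a blood transcription factor that works with GATA factors, averaged 12.78 ± 0.26 in Dicer-deleted and 13.76 ± 0.50 in control samples, and its difference of −0.98 had a limma adjusted p of 0.165. Its control replicates 1, 2 and 3 read 13.19, 14.03 and 14.07, so that replicate 1 lay nearest to the Dicer-deleted samples. With 1 array left out at a time the difference ranged over −1.27 to −0.83. Gata1 and Gata2 were well above background on all 9 arrays; Gata1 averaged 13.77 ± 0.09, 13.43 ± 0.22 and 13.92 ± 0.17 and Gata2 12.84 ± 0.16, 13.11 ± 0.23 and 13.06 ± 0.47 in Drosha-deleted, Dicer-deleted and control samples (SD, n = 3), all differences from controls with limma adjusted p-values of 0.165 or more.

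Of 14 mast cell and basophil proteases 10 were tested. Their medians were 0.14 in Drosha-deleted cells and −0.15 in Dicer-deleted cells against controls. In each, 1 had an unadjusted p under 0.05, 10% of the list beside 26.9% and 21.9% of all genes. Over the choice of controls these medians ranged over −0.12 to 0.21 and −0.53 to −0.10; without control replicate 2 they were −0.01 and −0.45, and against control replicate 1 alone −0.12 and −0.53. Tpsb2, a tryptase, read 8.14, 8.30 and 8.76 in Dicer-deleted samples, against 9.40, 9.16 and 8.99 in controls, groups that did not overlap, as for 9.95% of all genes in that direction. Its difference was −0.79 (limma adjusted p = 0.152). Cpa3, mast cell carboxypeptidase, averaged 14.74 ± 0.33 in Drosha-deleted, 14.17 ± 0.64 in Dicer-deleted and 14.31 ± 0.51 in control samples (SD, n = 3).

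The genes of amines, granules and lipid mediators, 16 of 18 tested, had medians of −0.05 and −0.04 (−0.11 to −0.02 and −0.07 to −0.04 over the choice of controls), with 4 and 3 unadjusted p-values under 0.05, 25% and 18.8% of the list beside 26.9% and 21.9% of all genes. Slc6a4, the serotonin transporter, read 9.66, 9.34 and 9.65 in Drosha-deleted and 9.57, 9.39 and 8.93 in Dicer-deleted samples, against 10.36, 10.35 and 10.48 in controls. Every deleted sample lay below every control, as for 3.94% of all genes tested, with a pooled difference of −0.97 (SE 0.15, limma adjusted p = 0.0529), just short of the threshold. Ltc4s, which makes leukotriene C4, differed by 0.67 in Drosha-deleted cells (limma adjusted p = 0.0915), and Ptgs1, cyclooxygenase 1, by −0.79 in Dicer-deleted cells (limma adjusted p = 0.129).

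Of 19 further cytokines and chemokines 13 were tested, with medians of −0.32 in Drosha-deleted cells and −0.42 in Dicer-deleted cells (−0.32 to −0.11 and −0.42 to −0.15 over the choice of controls). Unadjusted p-values under 0.05 numbered 1 and 3, 7.69% and 23.1% of the list beside 26.9% and 21.9% of all genes. Il3, a growth factor for basophils and mast cells that was also in the medium, averaged 6.93 ± 0.39 in Drosha-deleted, 6.38 ± 0.10 in Dicer-deleted and 6.28 ± 0.23 in control samples (SD, n = 3), and Drosha-deleted cells differed from controls by 0.65 (limma adjusted p = 0.119). Of 10 receptor genes of type 2 and other cytokines (among them Il6ra, Il6st, Il18r1 and Il18rap) 8 were tested, with medians of −0.07 (−0.15 to 0.03) and −0.05 (−0.24 to −0.02). Il6st, the signal chain of the IL-6 receptor, differed by 0.79 between Drosha-deleted and Dicer-deleted cells, with a limma adjusted p of 0.667.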

How the data were processed

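The study hybridised RNA to 9 Agilent arrays in one colour (design 028005). The deposited scanner files hold Cy3 intensity values, which per the file headers came from Agilent Feature Extraction software, version 10.7.3.1 (protocol GE1_107_Sep09). The authors' deposited values are on a log2 scale with nearly equal medians in all columns; the submitters' processing notes name limma without a version, and the other steps are not stated. The authors' log2 values are the ones reported, joined to the scanner files by spot number. Spots of one probe were averaged, control spots were left out, and a gene was represented by its probe with the highest mean over the 9 columns. A gene was tested when all 3 arrays of 1 or more groups had this probe well above background, as for 23016 genes or regions. A further 13397 were not tested. For control replicate 2 this filter used the flags of the mismatched scanner file.

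The comparisons used limma 3.58.1 (R 4.3.3, with the package data.table, version 1.17.8), with 1 mean per group over all 9 arrays, moderated two-sided tests, and Benjamini-Hochberg adjusted p-values. Tables and figures used Python 3.11.15, pandas 2.3.3, numpy 2.4.6 and matplotlib 3.10.9. The fit was tested on simulated data. Repeats with the same number did not deviate together (correlation of deviations −0.28 to 0.24, against −0.30 to 0.28 for different numbers), so the numbers were not used as pairs. Probe positions are on mm9 per the file headers and promoter positions on GRCm38.p6. Genes named beside the 10 are, per list, the genes called and otherwise at most 3 with the smallest p in any comparison, of which a selection is given, and for likeness the 3 highest correlations; Gata1, Gata2, Fcer1g, Ly6a and Kit were named in addition, after their values were seen. The genes, lists and tests were chosen with earlier results of these data known. Alternatives were the scanner values with and without control replicate 2, another background and normalisation, no filter, array weights, replicate numbers as a block, all probes averaged, and each array left out; the use of control replicate 1 alone was added after seeing the data.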

Additional observations from a re-analysis of the deposited data

Results flagged for a closer look

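Drosha RNA differed between the deletions, as the labels imply. Its difference from controls was −2.91 log2 units in Drosha-deleted cells and 0.10 in Dicer-deleted cells, and the test of Drosha-deleted minus Dicer-deleted cells gave −3.02 (limma adjusted p = 0.000124). None of the 10 mast cell and basophil genes met a criterion for a closer look. Groups of 3 arrays are too small for a test of single outlying samples.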

How the results depend on the processing

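Of the 20 differences of the 10 genes from controls, 3 kept their sign under all 17 alternatives (Hdc and Il4 in Dicer-deleted cells and Il13 in Drosha-deleted cells) and 17 changed it at least once. None but Mitf was called under any alternative. Depth was limited by signal over background for Il13 alone.

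With array weights, the genes called numbered 11637 in Drosha-deleted cells and 10023 in Dicer-deleted cells against controls, 150 between the deletions and 12069 pooled, with 1 of the 10 genes, Mitf, in each comparison with controls. Calls in the lists were summed over the 3 pairwise comparisons, so that a gene could count in each of them. In these, 50.6% (Drosha-deleted against control), 43.5% (Dicer-deleted against control) and 0.652% (between the deletions) of all genes were called. The sums were 21 in IgE receptor signalling (21 genes tested), 12 in surface receptors (18), 16 in transcription factors (21) and 2 in proteases (10). They were 10 in amine, granule and lipid genes (16 tested), 6 in cytokines (13) and 4 in cytokine receptors (8). Sign changes were Hdc 0.044 and Slc18a2 −0.28 in Drosha-deleted cells, and Il13 −0.084 in Dicer-deleted cells. The cause of the larger counts was not tested; control replicate 1 had the weight 0.147.

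Against control replicate 1 alone, 21 genes were called in Dicer-deleted cells, and the changed signs were Ms4a2 0.080 and Il1rl1 0.073 in Drosha-deleted and Ms4a2 0.10 and Slc18a2 0.34 in Dicer-deleted cells. Averaging all probes left 18 calls pooled and gave Slc18a2 −0.018 in Drosha-deleted cells. With no filter, 25, 2 and 10 genes were called in Drosha-deleted, Dicer-deleted and pooled cells against controls. With the replicate block, 4, 0, 5 and 0 genes were called in Drosha-deleted against control, Dicer-deleted against control, Drosha-deleted against Dicer-deleted, and pooled; no call on the 10 genes changed.

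Scanner values gave 9 calls in Drosha-deleted cells, 2 between the deletions and 5 pooled. Signs changed for Ms4a2 (0.48), Il1rl1 (0.39), Hdc (0.60) and Slc18a2 (−0.12) in Drosha-deleted cells, for Fcer1a (0.0081), Ms4a2 (0.44), Il1rl1 (0.32), Mitf (0.20) and Il6 (0.10) in Dicer-deleted cells, and for Mitf pooled (0.081). These values include the scanner file of control replicate 2, which did not match its column, and with them Drosha itself missed the threshold against controls (−2.56, limma adjusted p = 0.0900) and against Dicer-deleted cells (−3.09, 0.0588). Without that file there were 10, 5 and 3 calls, and the signs that changed were Cd200r3 (−0.15), Il6 (−0.016) and Slc18a2 (−0.12) in Drosha-deleted and Cd200r3 (−0.12) and Il13 (−0.28) in Dicer-deleted cells. Normexp and quantile normalisation used the scanner values of all 9 arrays, with the mismatched file of control replicate 2 included. It left 1, 0, 1 and 0 calls, in the order above. With it the sign changed for Ms4a2 (0.54), Il1rl1 (0.10), Hdc (0.094), Mitf (0.20) and Il4 (0.12) in Drosha-deleted cells. It also changed for Ms4a2 (0.55), Il1rl1 (0.029), Mitf (0.38) and Tpsb2 (0.054) in Dicer-deleted, and Mitf (0.29), Il4 (0.050) and Slc6a4 (0.10) in pooled cells.

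With 1 array left out at a time, genes called ranged over 4 to 7743 in Drosha-deleted and 0 to 7020 in Dicer-deleted cells against controls, 4 to 16 between the deletions and 3 to 8597 pooled, the highest of each without control replicate 1. Of the 10 genes 0 to 1 were called. Calls ranged over 0 to 15 in IgE receptor signalling, 0 to 9 in surface receptors and 0 to 6 in transcription factors. They ranged over 0 to 6 in amine, granule and lipid genes, 0 to 3 in cytokines and 0 to 2 in cytokine receptors. In Drosha-deleted cells the ranges were −0.63 to 0.041 for Fcer1a, −0.64 to 0.17 for Ms4a2, −0.35 to 0.23 for Il1rl1, −0.41 to 0.30 for Hdc, −0.20 to 0.89 for Cd200r3, −0.16 to 0.58 for Il6 and −0.21 to 0.18 for Slc18a2. In Dicer-deleted cells they were −0.58 to 0.37 for Fcer1a, −0.50 to 0.20 for Ms4a2, −0.42 to 0.16 for Il1rl1, −0.19 to 0.66 for Cd200r3, −0.67 to 0.24 for Il6, −0.34 to 0.55 for Il13 and −0.29 to 0.10 for Slc18a2. Between the deletions they were −0.64 to 0.067 for Hdc and −0.044 to 0.87 for Il6.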
